A study of Mus musculus and Homo sapiens with 12 samples.

Results

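The cytosolic ribosomal proteins are the protein components of the ribosomes that translate nuclear-encoded mRNAs. Members were the protein-coding rows of the mouse expression table whose symbol has the form Rpl or Rps followed by a number, with the stalk proteins Rplp0, Rplp1 and Rplp2 and with Rpsa, and without the S6 kinases and named pseudogenes. This rule gave 83 of 54331 rows, of which 51 encode proteins of the large subunit and 32 proteins of the small subunit. A few genes such as Fau and Rack1 also encode ribosomal proteins but have other symbols, and they were counted separately.

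RNA came from EMT6, a mouse mammary carcinoma cell line, as wild type (3 libraries) and as PFKFB4 knockout (3 libraries), both cultured in high-glucose medium with serum. The study compared the genotypes in EMT6 and in the human line MDA-MB-231, with 12 libraries in all, and the human libraries were not used here. The labels call the libraries biological replicates but do not say whether the knockout is 1 clone or a pool, how it was made, or whether replicates came from separate cultures, so p-values measure only the spread between these libraries. The knockout columns carry the code A7, which no label explains, and were taken as the knockout by elimination, since the other columns are named as wild type.

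A ribosome is built from a small subunit, which reads the mRNA, and a large subunit, which joins amino acids and releases the growing chain through an exit tunnel. Its proteins are made in matched amounts, and many of their mRNAs begin with a C followed by a run of C and T bases, the terminal oligopyrimidine motif, through which mTOR signalling and Larp1 control their translation. Tumour cells are known for a high output of ribosomes.

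Values are TPM, length-corrected shares of the transcripts that add up to 1000000 per library. TPM are shares of a library, so less RNA per cell and fewer cells of a type cannot be told apart. Pfkfb4, the targeted gene and an enzyme that sets the level of a regulator of glycolysis, stood at 10.2, 10.5 and 10.4 TPM in wild type and at 6.96, 6.87 and 8.24 TPM in knockout libraries, a log2 fold change of -0.45 (limma, adjusted p = 0.00487). The knockout libraries were all lower, but the call was lost under median-ratio scaling of the libraries (-0.23, adjusted p = 0.0632) and with the trend on exon length removed (-0.18, adjusted p = 0.124). Transcript remained, and whether it is functional was not tested. Transcripts of the mitochondrial genome took 9.36 to 12.3% of TPM in wild type and 4.99 to 6.39% in the knockout, and Mir6236 took 2.81 to 3.23% and 5.49 to 7.13%. The summed level of 7 leukocyte markers was 24.7 to 28.7 TPM in wild type and 58.0 to 63.5 TPM in the knockout, but 5 of them, the defining Ptprc among them, were under 1 TPM in every library and Cd68 carried most of the sum. All 5 endothelial markers were under 1 TPM in every library. Of 7 markers of the line, Epcam and Cdh1 were under 1 TPM in every library. From wild-type to knockout mean, Krt14 went from 36.5 to 3.94 TPM, Krt18 from 36.3 to 15.5 and Krt19 from 1.95 to 0.02. Krt8 went from 482 to 535 TPM and Vim from 2711 to 3292. Of the fibroblast markers, Dcn went from 0.41 to 2.52 TPM and Pdgfra from 4.83 to 2.18. The 10 most abundant genes included mt-Atp8 and Mir6236, but also the member Rpl13a and the rows Gm14303, Gm28900, Gm10443 and Rpl38-ps2. These last rows are copies of members, as described below. With the 10 genes left out and the libraries rescaled, 52 of 79 members were higher and 6 lower. The members' median log2 fold change was then 0.19, and of all genes 14.8% were higher and 40.5% lower. The part of these cell type markers and of the other mitochondrial transcripts in the results that follow was not tested.

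The starts of 4 members show a motif found in part of the family. They are read from the RefSeq promoter table on GRCm38.p6, 15 bases before the annotated start and 15 from it onward, 5′ to 3′ on the gene's strand, with capitals marking the run of C and T bases that begins with the C at the start. Rps18 (chr17:33955651-33955680, minus strand) and Rps10 (chr17:27635230-27635259, minus strand) are shown because their transcripts fell in the knockout, and Rps6 (chr4:86857353-86857382, minus strand) and Rpl35a (chr16:33056467-33056496, plus strand) because theirs rose.
Rps18: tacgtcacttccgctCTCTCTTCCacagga
Rps10: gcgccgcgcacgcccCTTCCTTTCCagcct
Rps6: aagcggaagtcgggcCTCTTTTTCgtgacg
Rpl35a: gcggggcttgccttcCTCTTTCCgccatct
Of 63 members found in that table, 13 (20.6%) had a C at the annotated start followed by at least 4 bases that are C or T, on the gene's strand, beside 800 of 26962 other genes (2.97%). With the C allowed within 5 bases of the annotated start, the shares were 46.0% and 21.1%. Of the 13 members, 6 rose, 2 fell and 5 were not called, beside 56.2% higher and 7.5% lower of all tested members and 14.5% and 42.3% of all genes. One that fell, Rps10, was at 0.02 (adjusted p = 0.81) under median-ratio scaling. A match here describes letters at an annotated start and not a measured start.

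Most ribosomal protein transcripts stood higher in the PFKFB4-knockout libraries, and a small set stood lower. Of the 83 members, 80 passed the filter of at least 0.5 TPM in at least 3 libraries. At an adjusted p of 0.05, 45 of the 80 (56.2%) rose and 6 (7.5%) fell, where 14.5% of all 13499 tested genes rose and 42.3% fell. The median log2 fold change was 0.18 over the members and -0.21 over all tested genes. The rise was not particular to this family. Of 96 tested nuclear respiratory chain subunits, 64 rose (66.7%) and 7 fell, with a median of 0.32. Of 78 mitochondrial ribosomal proteins, 36 rose (46.2%) and 8 fell, with a median of 0.16. The differences between these families and the members were not tested. All 3 knockout libraries lay above all 3 wild-type libraries for 52 members and below them for 6, and the groups overlapped for 22, against 17.9% of all genes above and 48.3% below. The changes were small, and no member was called at a change of at least 2-fold.

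How many members rose depended on how the libraries were scaled. Scaling by median ratios, which moves the median of all genes from -0.21 to -0.01, gave 70 members higher and 3 lower, where 26.6% of all genes were higher and 25.4% lower, and all 45 members that rose on TPM rose here too. Removing the trend of fold change on exon length gave 40 higher and 12 lower, where 23.0% and 27.3% of all genes were, and 35 of the 45 rose and Rpl36 fell. Centring each library on the members themselves, which asks which members moved against their own family, gave 24 higher and 17 lower, where 8.57% and 54.2% of all genes were. Without knockout replicate 1, 29 members were higher and 6 lower, where 11.3% and 35.0% of all genes were. Without knockout replicate 3 the members' counts were also 29 and 6, where 11.9% and 36.0% were.

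**Figure D1:**
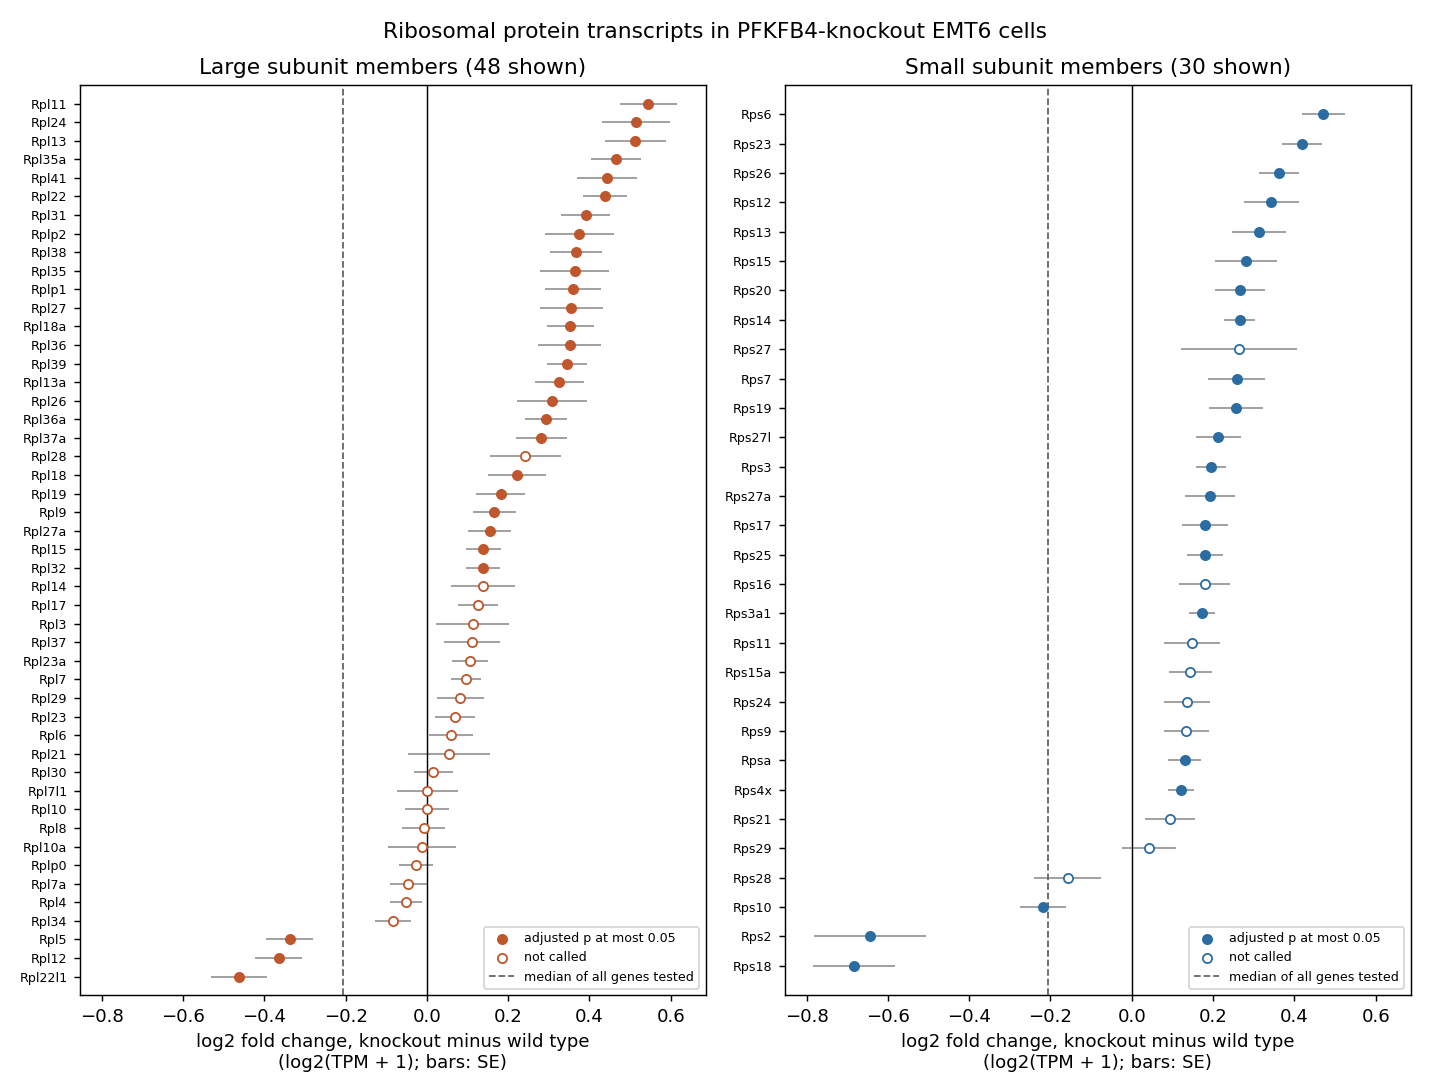
Log2 fold change (knockout minus wild type, on log2(TPM + 1)) of tested members, ranked within the large subunit (left, 48 members) and the small subunit (right, 30 of 32 members), with standard errors as bars and filled points for adjusted p of at most 0.05. Most points lie between 0 and 0.55, to the right of the dashed median of all tested genes at -0.21, and Rps18 and Rps2 lie farthest left.

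Members of both subunits rose far more often than they fell, and the summed level of each subunit was higher in the knockout. The difference between the subunits was not tested. Of 48 tested large-subunit members, 25 rose and 3 fell, with a median of 0.15. Of 32 small-subunit members, 20 rose and 3 fell, with a median of 0.19. Over all genes 14.5% rose and 42.3% fell. Under median-ratio scaling these counts were 42 and 1 for the large and 28 and 2 for the small subunit, where 26.6% and 25.4% of all genes were. Without knockout replicate 1, or without knockout replicate 3, 11 small-subunit members were higher, where 11.3% and 11.9% of all genes were. Summed TPM of large-subunit members was 49553, 54276 and 55899 in wild type and 64062, 60357 and 64263 in the knockout. Small-subunit members summed to 33818, 37085 and 37465 in wild type and to 41841, 40056 and 42051 in the knockout. Both sums were higher in every knockout library than in any wild-type library. Together the members took 8.94 ± 0.529% of TPM in wild type and 10.4 ± 0.33% in the knockout (SD, n = 3 each). The ratio of the large-subunit to the small-subunit sum was 1.46, 1.46 and 1.49 in wild type and 1.53, 1.51 and 1.53 in the knockout. It was higher in each knockout library, by 1.03 times between the group means, and this ratio was given no test.

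Levels ranged widely for proteins most of which occur once per ribosome. Mean wild-type TPM ran from 39.1 for Rpl5 to 6139 for Rpl13a, with a median of 817 over the 80 tested members. The 6 members under 100 TPM in wild type were Rpl5, Rpl12, Rpl21, Rpl7l1, Rps2 and Rps27, and 5 of them, all but Rpl7l1, had most of their matching signal in other rows, as described with the copies. Rpl3l was at 0.0969 to 0.238 TPM, and Rpl10l and Rpl39l were listed at 0 in every library. These 3 paralogues, versions of Rpl3, Rpl10 and Rpl39 known from striated muscle or testis, did not pass the filter.

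In the large subunit, the rows of the 5S ribonucleoprotein partners moved apart. Rpl11 and Rpl5 bind the 5S rRNA together and, outside the ribosome, bind Mdm2. Rpl11 measured 1131, 1284 and 1327 TPM in wild type and 1835, 1734 and 1884 TPM in the knockout, the largest rise of any member on TPM (log2 fold change 0.55, SE 0.07, adjusted p = 0.00168). The knockout libraries were all higher and did not overlap with wild type. The Rpl5 row measured 38.0, 40.7 and 38.5 TPM in wild type and 30.5, 32.6 and 29.2 TPM in the knockout (-0.34, SE 0.06, adjusted p = 0.00417). Its libraries were all lower in the knockout, but this fall did not hold once the rows of its copies were added (0.10, adjusted p = 0.0772), and median-ratio scaling gave -0.10 (adjusted p = 0.179). Removing the length trend also ended the call, at -0.13 (adjusted p = 0.0927).

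At the exit tunnel, 6 of 8 listed members rose and none fell, with a median of 0.33. Of all tested members 56.2% rose and 7.5% fell, and of all genes 14.5% and 42.3%. The list holds Rpl17, Rpl19, Rpl22, Rpl23a, Rpl26, Rpl31, Rpl35 and Rpl39, which lie around or near the opening where the nascent chain emerges. Rpl39, inside the tunnel wall, measured 631, 698 and 690 TPM in wild type and 864, 832 and 868 TPM in the knockout (0.35, SE 0.05, adjusted p = 0.00227). The groups did not overlap. Rpl17 (0.13) and Rpl23a (0.11) were not called. With median-ratio scaling all 8 were higher, where 26.6% of all genes were. With the length trend removed 5 were higher and 1 lower, where 23.0% and 27.3% of all genes were.

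The stalk, which recruits translation factors to the large subunit, moved unevenly. Rplp1 measured 2006, 2266 and 2269 TPM in wild type and 2882, 2617 and 2887 TPM in the knockout (0.36, SE 0.07, adjusted p = 0.00619). Rplp2, its dimer partner, measured 1245, 1387 and 1440 TPM in wild type and 1884, 1590 and 1813 TPM in the knockout (0.38, SE 0.08, adjusted p = 0.0115). Both were higher in every knockout library. Rplp0, the scaffold that holds both dimers, measured 743, 782 and 785 TPM in wild type and 774, 729 and 765 TPM in the knockout, and the groups overlapped (-0.03, adjusted p = 0.612). The ratio of Rplp1 to Rplp0 was 2.83 ± 0.113 in wild type and 3.70 ± 0.0938 in the knockout (SD, n = 3 each), and that of Rplp2 to Rplp0 was 1.76 ± 0.0809 and 2.33 ± 0.131. These are differences of mRNA share and were not tested as ratios. The scale mattered here: Rplp0 was higher under median-ratio scaling (0.21, adjusted p = 0.0202), and the change of Rplp1 went to -0.03 (adjusted p = 0.459) when the length trend was removed.

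Other large-subunit members with large rises had no role in these lists. Rpl24, a protein of a bridge between the subunits, measured 690, 772 and 829 TPM in wild type and 1121, 1007 and 1144 TPM in the knockout (0.52, SE 0.08, adjusted p = 0.00346). Rpl13 measured 428, 477 and 506 TPM in wild type and 688, 627 and 696 TPM in the knockout (0.51, SE 0.07, adjusted p = 0.00247). Rpl35a, mutated in some families with Diamond-Blackfan anaemia, measured 404, 464 and 456 TPM in wild type and 611, 589 and 625 TPM in the knockout (0.46, SE 0.06, adjusted p = 0.00181). All 3 genes had no overlap between groups. Rpl41, which encodes the smallest ribosomal protein, measured 2947, 3463 and 3467 TPM in wild type and 4466, 4314 and 4616 TPM in the knockout (0.44, SE 0.07, adjusted p = 0.00395), again with every knockout library higher.

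In the small subunit, Rps6 was among the leading rises. Rps6, the substrate of the S6 kinases, measured 338, 355 and 380 TPM in wild type and 483, 493 and 511 TPM in the knockout (0.47, SE 0.05, adjusted p = 0.00113). It was higher in all 3 knockout libraries than in any wild-type library. Rps27a, translated as a fusion to ubiquitin, measured 602, 687 and 689 TPM in wild type and 773, 749 and 736 TPM in the knockout (0.19, SE 0.06, adjusted p = 0.0388), a call lost without the filter, without the mean-variance trend, without any 1 knockout library and without wild-type replicate 2 (adjusted p = 0.0509 to 0.113).

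Around the mRNA channel the proteins split. Of the 6 listed at the mRNA exit, which include Rpsa, Rps3a1, Rps14, Rps26 and Rps28, 5 rose and none fell, with a median of 0.18. Over all tested members the shares were 56.2% higher and 7.5% lower, and over all genes 14.5% and 42.3%. Rpsa, also known as a laminin receptor, measured 2136, 2246 and 2318 TPM in wild type and 2454, 2417 and 2459 TPM in the knockout (0.13, SE 0.04, adjusted p = 0.0366), a call lost without any 1 of the knockout libraries (adjusted p = 0.0723 to 0.103) and without wild-type replicate 2 (adjusted p = 0.0899). Of the 3 at the mRNA entry, Rps3 rose (0.19), Rps9 was not called (0.13) and Rps2 fell (-0.64). Of the 4 at the decoding centre and P site, Rps15 (0.28) and Rps23 (0.42) rose, Rps16 was not called (0.18) and Rps18 fell (-0.68). With the length trend removed, Rps15 was at -0.05 (adjusted p = 0.319). Of the 13 Diamond-Blackfan anaemia genes, which lie in both subunits, 8 rose (61.5%) and 2 fell (15.4%, Rps10 and Rpl5), with a median of 0.18. The shares were 56.2% and 7.5% over all tested members, and 14.5% and 42.3% over all genes. Median-ratio scaling gave 10 and 0, where 26.6% and 25.4% of all genes were higher and lower. Without the filter on low values 3 were higher, where 6.7% of all genes were. Without knockout replicate 1 or 3 also 3 were higher, where 11.3% and 11.9% of all genes were.

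The falls of Rps18 and Rps2 were the largest changes of any member's row on TPM, while under median-ratio scaling Rpl11 changed most (0.78). Rps18, a protein of the small-subunit head (chr17:33951999-33956001), measured 162, 148 and 181 TPM in wild type and 94.3, 97.3 and 113 TPM in the knockout (-0.68, SE 0.10, adjusted p = 0.00246). Rps2, at the mRNA entry (chr17:24718116-24721929), measured 49.0, 43.9 and 54.7 TPM in wild type and 27.6, 28.8 and 37.5 TPM in the knockout (-0.64, SE 0.14, adjusted p = 0.00934). No knockout library reached the wild-type range in either gene. Both stayed lower with each library scaled by median ratios (-0.45 and -0.41) and after removal of the length trend (-0.63 and -0.68). With the rows of their copies added both were also lower, at -0.43 and -0.52. Rps10, a Diamond-Blackfan anaemia gene (chr17:27630418-27636669), measured 983, 1056 and 1075 TPM in wild type and 933, 840 and 904 TPM in the knockout (-0.22, SE 0.06, adjusted p = 0.0189). Its knockout libraries were all lower, but the change was 0.02 (adjusted p = 0.81) under median-ratio scaling, and the call was lost without wild-type replicate 2 or 3 (adjusted p = 0.0615 and 0.057).

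**Figure D2:**
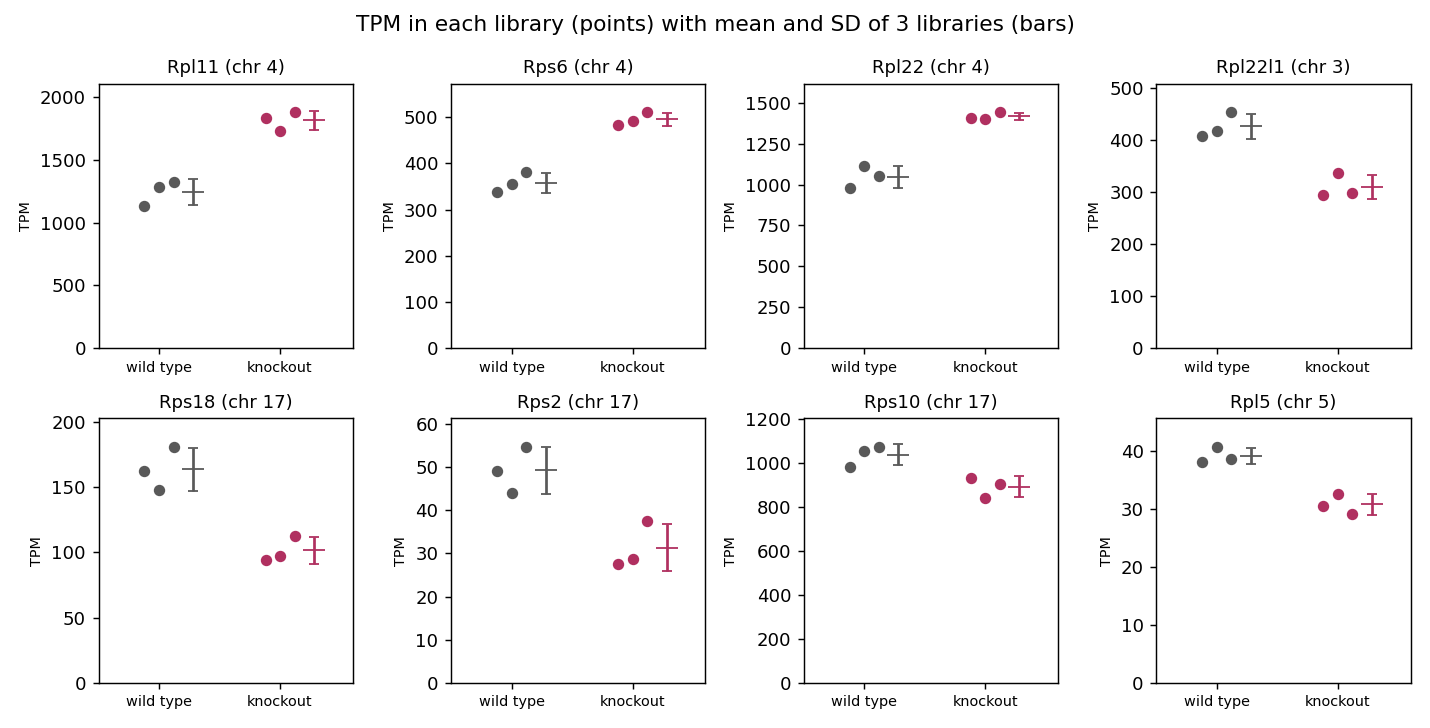
TPM of 8 members in each wild-type (grey) and knockout (red) library, with the mean and SD of 3 libraries beside the points and axes that start at 0. Rpl11, Rps6 and Rpl22 lie higher in every knockout library, and Rpl22l1, Rps18, Rps2, Rps10 and the Rpl5 row lie lower.

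Among genes that encode alternative versions of a ribosomal protein, Rpl22 and Rpl22l1 moved in opposite directions. Rpl22 is an RNA-binding protein of the large subunit that is known to hold down its paralogue. It measured 978, 1111 and 1053 TPM in wild type and 1407, 1402 and 1444 TPM in the knockout (0.44, SE 0.05, adjusted p = 0.00141). Rpl22l1 measured 408, 416 and 454 TPM in wild type and 294, 335 and 298 TPM in the knockout (-0.46, SE 0.07, adjusted p = 0.00261). The groups were separate in both genes. The ratio of Rpl22 to Rpl22l1 was 2.40, 2.67 and 2.32 in wild type and 4.78, 4.18 and 4.85 in the knockout. Rpl22l1 was also lower under median-ratio scaling (-0.22) and when pooled with its copies (-0.47). The Rpl22 row shares 5.2% of its 50-base words with other genes, and the Rpl22l1 row 58.9%.

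The other paralogue pairs moved less. Rps27l rose (515, 522 and 483 TPM against 565, 625 and 573 TPM, 0.21, adjusted p = 0.0185), with no overlap, but the call was lost without wild-type replicate 3 (adjusted p = 0.0517) and the change was -0.05 (adjusted p = 0.638) with the length trend removed. Its parent Rps27 measured 41.1, 39.9 and 48.6 TPM in wild type and 63.1, 44.8 and 49.3 TPM in the knockout, which overlapped (0.26, adjusted p = 0.162). Rpl7l1 measured 101, 90.6 and 87.4 TPM in wild type and 94.1, 98.7 and 86.2 TPM in the knockout, which overlapped (0.00, adjusted p = 0.989). Rpl7, its parent, measured 1541, 1604 and 1638 TPM in wild type and 1685, 1730 and 1698 TPM in the knockout (0.10, adjusted p = 0.0654) and was higher in each knockout library without passing the test. Rps4x, the X-linked form of Rps4, rose slightly (1033, 1053 and 1082 TPM against 1147, 1150 and 1146 TPM, 0.12, adjusted p = 0.0214), a call lost without any 1 knockout library or wild-type replicate 2 (adjusted p = 0.0598 to 0.0726). Rpl3 (386, 442 and 483 TPM against 497, 445 and 472 TPM, 0.11, adjusted p = 0.324) and Rpl10 (421, 452 and 470 TPM against 459, 456 and 428 TPM, 0.00, adjusted p = 0.992) overlapped between groups.

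Ribosomal protein genes are known for the many processed copies they have left in mammalian genomes, so that a short read from one mRNA can match several annotated genes. Many members shared sequence with other annotated genes, and for some the member's row holds a minor part of the signal. Each member's transcripts were cut into words of 50 bases, and a median of 35.9% of a member's words also occur in another gene. For 28 members at least 50% do, and for 3 members none do. Another row was called a copy where at least 25% of its own words occur in the member, which gave 382 copy rows for 71 members. Copy rows summed to 11.7 ± 0.628% of TPM in wild type and 12.9 ± 0.376% in the knockout (SD, n = 3 each), more than the members themselves. For 35 members a copy row had more TPM than the member. With TPM weighted by exon length, 17 members held under 50% of the signal of their own row and copies, and 5 held under 20%: Rpl5, Rpl12, Rpl21, Rps2 and Rps27.

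The sequences of 2 such pairs, shown because their rows fell, show how close a member and its copy can be. Over the coding sequence, Rpl5 and Gm15500 (chr7:114705217-114706235, minus strand), a processed pseudogene, are identical over 891 bases, and Rps18 and Gm10260 (chr13:97760072-97760632, minus strand), annotated as protein-coding, differ at 4 of 456 bases. Coding bases 1 to 60 are shown for Rpl5 (chr5:107900502-107909005, plus strand) and coding bases 341 to 400 for Rps18, from GENCODE M21 transcripts on GRCm38, 5′ to 3′, with a capital where the pair differs.
Rpl5: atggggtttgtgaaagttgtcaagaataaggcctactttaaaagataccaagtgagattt
Gm15500: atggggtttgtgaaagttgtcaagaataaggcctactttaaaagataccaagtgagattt
Rps18: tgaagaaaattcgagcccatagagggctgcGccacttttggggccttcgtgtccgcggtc
Gm10260: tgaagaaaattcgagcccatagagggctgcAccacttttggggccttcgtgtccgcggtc
Rps2 and its copy Rps2-ps10 are 99.4% identical over 879 coding bases, and Rpl12 and Gm10275 are identical over 495. Which gene the reads of such a pair came from was not tested, so the values of these rows are uncertain.

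For Rpl5 and Rpl12 the copies moved against the member's row, and for Rps2 and Rps18 they moved with it. Gm15500 measured 967, 1043 and 1059 TPM in wild type and 1144, 1138 and 1143 TPM in the knockout (0.16, adjusted p = 0.023), far above the Rpl5 row. The Rpl12 row, of a protein at the base of the stalk, measured 67.6, 61.9 and 64.9 TPM in wild type and 51.8, 51.6 and 46.9 TPM in the knockout (-0.36, SE 0.06, adjusted p = 0.00333), while Gm10275 measured 2672, 2810 and 2906 TPM and 3104, 2946 and 3136 TPM (0.13, adjusted p = 0.0556). Both member rows were lower in all knockout libraries and both copies higher. Rps2-ps10 measured 2207, 2310 and 2406 TPM in wild type and 1642, 1544 and 1647 TPM in the knockout (-0.52, adjusted p = 0.000613). Gm10260 measured 762, 828 and 815 TPM in wild type and 637, 616 and 602 TPM in the knockout (-0.37, adjusted p = 0.00141). These 2 copies were lower in every knockout library, like Rps2 and Rps18. Rpl10-ps3, a copy of Rpl10 annotated as protein-coding, rose from 1165 ± 118 to 1672 ± 79.4 TPM (SD, n = 3 each, 0.52, adjusted p = 0.00321), where the Rpl10 row was at 0.00.

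With each member pooled with its copies by length-weighted TPM, 49 members rose and 4 fell, where 14.5% of all genes rose and 43.0% fell, with a member median of 0.17. Of the 45 members that rose by their own row, 44 also rose when pooled, the exception being Rpl27a. The 4 that fell were Rps2 (-0.52), Rpl22l1 (-0.47), Rps18 (-0.43) and Rps10 (-0.22). Rpl12 (0.07, adjusted p = 0.148) and Rpl5 (0.10) turned to the other direction and were not called, and Rpl10 (0.25), Rpl17, Rpl21, Rps16 and Rps27 (0.31) were newly called higher. This pooling was chosen after seeing the data, and Rpl27a, Rpl17, Rpl21 and Rps16 are named because they changed call.

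**Figure D3:**
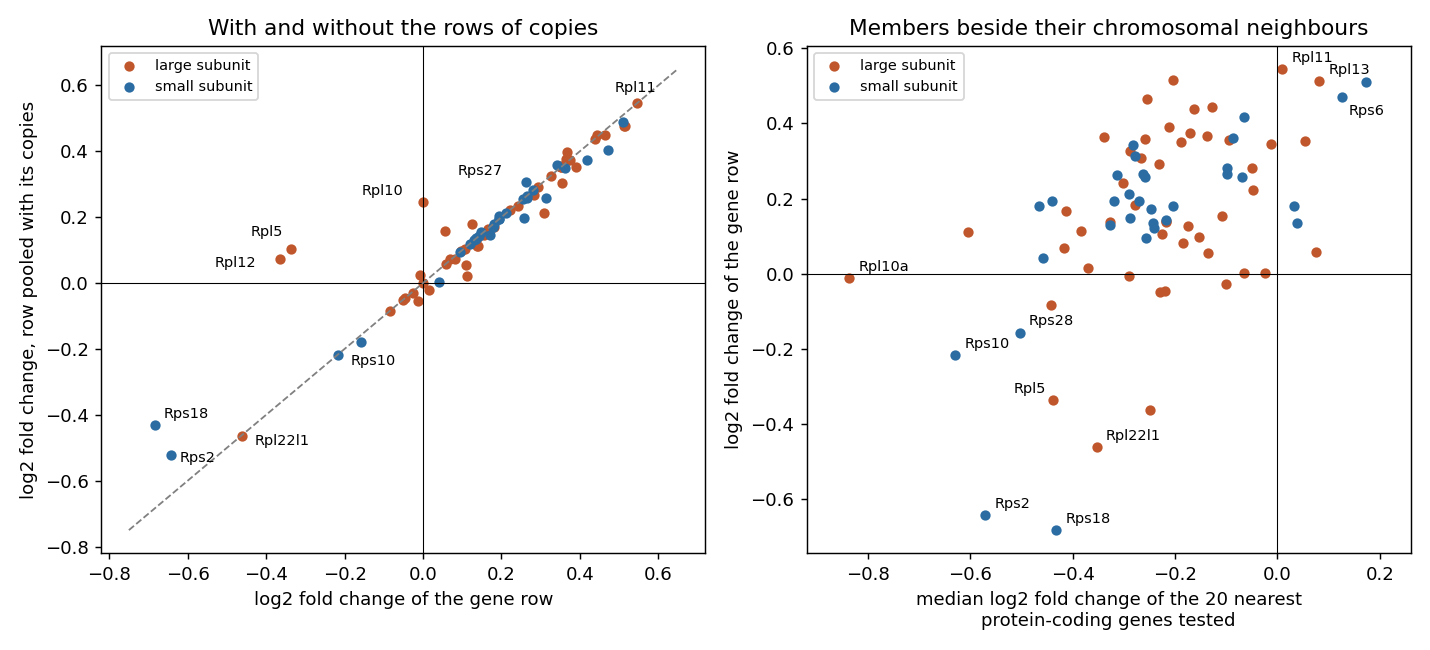
Left, log2 fold change (knockout minus wild type) of each tested member's own row (horizontal) against that of the row pooled with its copies (vertical), with the dashed line of equality. Rpl5, Rpl12, Rpl10, Rps18 and Rps2 lie above the line and most members lie on or near it. Right, the median log2 fold change of the 20 nearest tested protein-coding genes (horizontal) against that of the member (vertical), with Rps2, Rps10, Rps18 and Rps28 at lower left and Rpl11, Rpl13 and Rps6 at upper right.

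Of the 6 members that fell, Rps2, Rps10 and Rps18 lie on chromosome 17, and so do 3 of the 4 that fell when pooled with copies. Their starts span 9.23 Mb in its proximal part, and the genes around them fell too. Between Rps2 and Rps18, 116 of 142 other tested protein-coding genes were lower and none was higher, with a median log2 fold change of -0.66. Before Rps2, 97 of 115 were lower and 1 was higher, with a median of -0.64. After Rps18, 162 of 297 were lower and 34 higher, with a median of -0.28. Under median-ratio scaling these medians were -0.47, -0.49 and -0.08. Across the chromosome, 67.7% of 555 other protein-coding genes were lower, the largest share on any chromosome with members. The cause of this stretch was not tested.

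On TPM, the rows of members in the stretch did not all follow it. Rps28, near Rps18 (chr17:33819027-33824562), measured 437, 489 and 511 TPM in wild type and 459, 392 and 437 TPM in the knockout, which overlapped (-0.16, adjusted p = 0.15, and 0.08 under median-ratio scaling). With the length trend removed Rps28 was lower (-0.22, adjusted p = 0.0358). Its row held 26.6% of the length-weighted signal of row and copies, and pooled with them it was at -0.18 (adjusted p = 0.0787). Rpl10a, between Rps10 and Rps28, measured 256, 287 and 269 TPM in wild type and 300, 248 and 259 TPM in the knockout, which overlapped (-0.01, adjusted p = 0.91, and 0.23 under median-ratio scaling), although its 20 nearest genes had a median of -0.84 and 19 of them were lower. Other genes hold 62.6% of the words of Rpl10a, and pooled with its copies it was at -0.06 (adjusted p = 0.414). Rpl36, farther along the chromosome, rose (970, 1103 and 1146 TPM against 1423, 1276 and 1402 TPM, 0.35, adjusted p = 0.0105), with no overlap between groups, but was lower at -0.10 with the length trend removed. Rps28, Rpl10a and Rpl36 were picked for their chromosome after their values were seen.

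**Figure D4:**
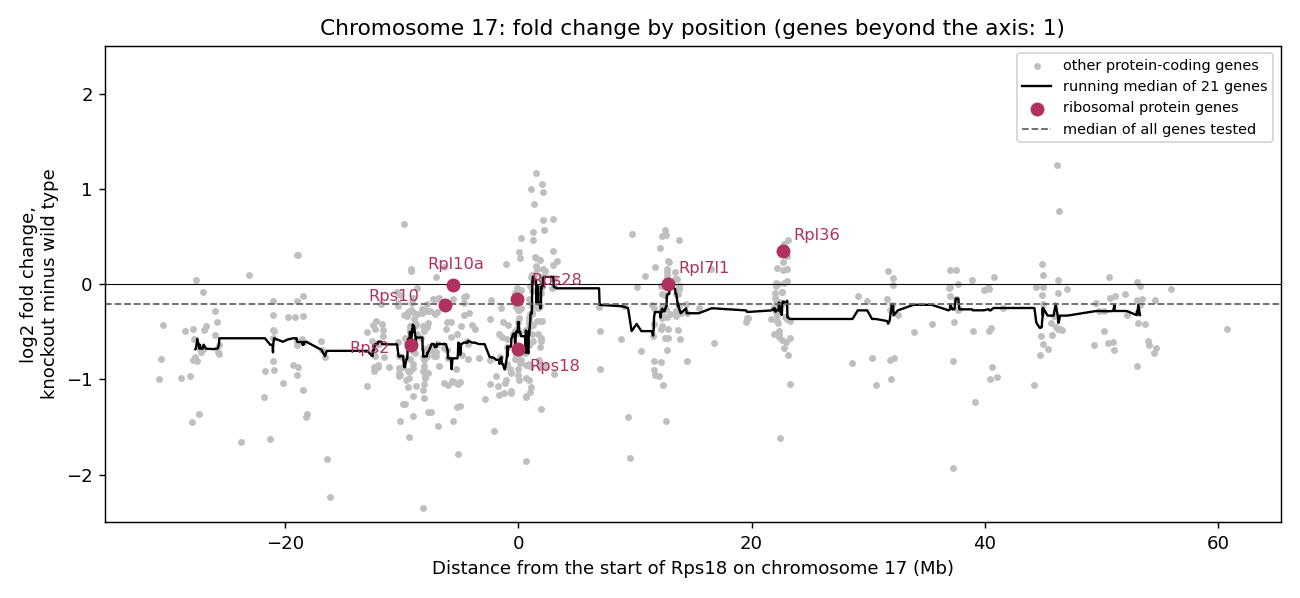
Log2 fold change (knockout minus wild type) of tested protein-coding genes on chromosome 17 by distance in Mb from the start of Rps18, with ribosomal protein genes in red, a running median of 21 other genes as a line, and the median of all tested genes dashed. The running median lies below the dashed line up to about Rps18 and near it beyond, and 1 gene falls outside the axis.

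Elsewhere too, the calls of members varied by chromosome, often on few members, and differences between chromosomes were not tested. Over all tested members 56.2% rose and 7.5% fell, and over all genes 14.5% and 42.3%. On chromosomes 4 and 8, whose other protein-coding genes had the highest medians (-0.04 and -0.02), all 7 members rose. Of the other genes there, 26.3% were higher on each, and 29.2% and 26.2% lower. The 5 on chromosome 4, Rpl11, Rpl22 and Rps6 among them, had a median of 0.47. All tested members also rose on chromosomes 10 (4 members, median 0.35) and 16 (2 members, median 0.49). The other genes of these chromosomes had medians of -0.21 and -0.13, and 14.7% and 21.8% of them were higher. The 1 member on each of chromosomes 6 and 13 rose as well, where other genes had medians of -0.20 and -0.12. Of those other genes, 13.5% and 22.7% were higher. On chromosomes 12, 14 and 15, whose other genes had the lowest medians after chromosome 17 (-0.33, -0.35 and -0.34), 2 of 8 members rose and none fell. Among their other genes, 6.56%, 9.76% and 9.89% were higher and 60.4%, 55.6% and 60.4% lower. Across the 80 tested members, the fold change of a member and the median of its 20 nearest genes had Pearson's r = 0.51 and Spearman's rho = 0.45, and without chromosome 17 r = 0.42 and rho = 0.38 over 73 members. Over 11024 other protein-coding genes r was 0.24 and rho 0.24. These are descriptions across genes, which share the same 6 libraries and in part the same neighbours, and no p is given. For the 80 members, r was 0.42 with log2 wild-type TPM, -0.21 with log2 exon length and -0.04 with the share of words found in other genes, and rho was 0.21, -0.21 and 0.04.

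One more feature of structure was more frequent among members than among other genes. By the annotation, 30 of 83 (36.1%) have a small nucleolar RNA gene within their locus, beside 166 of 11024 other tested protein-coding genes (1.51%). Small nucleolar RNAs guide the modification of ribosomal RNA and are released from introns of such host genes. Their own levels were not analysed here, since the libraries were made from poly(A) RNA.

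Other genes of ribosome production were measured in lists of their own, whose difference from the members was not tested. Of the 4 ribosomal proteins outside the symbol rule, 2 rose and none fell, and Rack1, a scaffold on the small subunit, was one that rose (0.20, adjusted p = 0.0234). Of 32 assembly factors, 9 rose (28.1%) and 2 fell (6.25%), with a median of 0.05, where 14.5% and 42.3% of all genes were called and their median was -0.21. Nip7 (0.40), which acts in late assembly, and Ncl, nucleolin (0.49), rose, and Riok2 (-0.76), a kinase of small-subunit maturation whose gene is on chromosome 17, and Bop1 (-0.37) fell. Of 11 RNA polymerase I and rDNA factors, Cd3eap (0.59) rose and Polr1b (-0.53) and Polr1c (-0.35, chromosome 17) fell. Under median-ratio scaling, 22 assembly factors were higher and 1 lower, and 5 polymerase factors were higher and 1 lower, where 26.6% and 25.4% of all genes were.

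Of 17 translation factors whose mRNAs carry the same kind of start, 3 rose and 8 fell (17.6% and 47.1%), near the 14.5% and 42.3% of all genes, with a median of -0.12. With median-ratio scaling 8 were higher and 2 lower (47.1% and 11.8%), beside 26.6% and 25.4% of all genes, so that the direction of this list turned with the scale. Pabpc1 (-0.43, adjusted p = 0.000323), the poly(A)-binding protein, and Eif4b (-0.44, adjusted p = 0.000909), which assists the helicase of initiation, fell under both scalings. Btf3 (0.20) and Naca (0.29), the subunits of the nascent polypeptide-associated complex, rose under both. Of 14 regulators of ribosomal protein synthesis, 2 rose and 7 fell, with 3 and 3 under median-ratio scaling, where the shares of all genes were those given for the translation factors. Tsc2, a brake on mTOR signalling that lies close to Rps2 on chromosome 17, fell by 0.99 on the log2 scale (adjusted p = 0.00101), and Rptor, a subunit of the mTOR complex, by 0.48 (adjusted p = 0.00259). Eif4ebp1, the repressor of cap-dependent initiation that mTOR inactivates, rose by 0.50 (adjusted p = 0.00132), and Zfp622 rose by 0.38 (adjusted p = 0.00656).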

How the data were processed

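Single-end poly(A) RNA libraries of EMT6 were analysed, 3 wild type and 3 PFKFB4 knockout. The authors deposited TPM per gene. The submitters' processing notes name TopHat2 2.1.1, CASAVA 1.8.2, Subread 1.6.4 and featureCounts, and the build mm10. Not given in the sources used here are their settings, the strand and the treatment of reads that match several genes. TPM keeps no depth, so read numbers are unknown and no counting intervals are given. GENCODE M21 (GRCm38) gave positions, exon lengths and symbols, the last for 54097 of 54331 rows. Promoters came from RefSeq on GRCm38.p6.

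Genes with at least 0.5 TPM in at least 3 of 6 libraries were tested on log2(TPM + 1) by limma 3.58.1 (R 4.3.3), with its trend of variance on mean and without covariates. A fold change on this scale understates the change of low genes. The design allowed for counts or TPM, and the TPM form was used. Adjusted p is Benjamini-Hochberg over all 13499 tested genes. Copies were found by shared 50-base words of the annotated transcripts, and 9 rows that overlap a member's locus were left out. For pooling, TPM times exon length was summed over a member and its copies and divided by the member's exon length. Neighbours are the 10 nearest tested protein-coding genes on each side, members left out. The fit was tested on simulated data.

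The members named are the 8 largest called rises, all called falls, the stalk, Rpsa, Rps27a and paralogues with their parents. Some genes that the rule selects are left out by name, here and in the plot of ranked changes, and stay in the counts. Others named for their chromosome or call are marked. For other genes of the pathway, up to 4 per list with the smallest adjusted p are named. The members and lists were chosen with earlier results of these data known. Alternatives were the scaling, filter, pseudocount, trend, replicate block, libraries left out, exon length and a 2-fold minimum. The human table was not used, since no table paired its identifiers with symbols.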

Additional observations from a re-analysis of the deposited data

How the results depend on the processing

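Of the 80 tested members, 45 higher and 6 lower became 70 and 3 with median-ratio scaling, 24 and 17 when centred on the members, and 0 and 0 at a minimum change of 2-fold, with 29 higher without the filter (6.7% of all genes) and 12 lower with the length trend removed. Leaving out 1 library gave 29 to 42 higher and 5 to 7 lower. For the large subunit, 25 and 3 became 42 and 1 with median-ratio scaling, with 12 lower when centred, 6 lower with the length trend removed and 1 lower when pooled with copies, and 18 to 23 higher and 3 to 4 lower without 1 library. For the small subunit, 20 and 3 became 6 and 5 when centred, with 11 higher without the filter, 6 lower with the length trend removed, and 11 to 20 higher and 2 to 3 lower without 1 library. Both subunits had 0 either way at 2-fold. Over all genes, 1954 higher and 5705 lower became 3584 and 3426 with median-ratio scaling, 202 and 621 at 2-fold and 3099 and 3677 after removal of the length trend, with 1157 higher when centred, and 1526 to 1851 and 4722 to 5215 without 1 library.

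Of the 80 members, 8 turned sign with median-ratio scaling, 16 with the length trend removed and 4 when pooled with copies. Among the members that the naming rule selects, these were, with median-ratio scaling, Rps10 (0.022) and Rplp0 (0.21). When pooled with copies they were Rpl12 (0.072) and Rpl5 (0.10). With the length trend removed they were Rplp1 (-0.029), Rps27l (-0.051) and Rpl10 (-0.0041). When centred they were Rpsa (-0.046), Rpl7l1 (-0.17), Rpl3 (-0.063), Rpl7 (-0.079), Rpl10 (-0.17) and Rps4x (-0.055). Without genes under 300 nt, Rpl7l1 was -0.014 and Rpl10 -0.014. Without 1 library, Rpl7l1 ranged from -0.042 to 0.061 and Rpl10 from -0.043 to 0.036. Centring sets the members' own centre to 0 by construction, and the cause of the other shifts was not tested.

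The replicate numbers were not taken to pair the libraries. Deviations of same-numbered libraries correlated at 0.06, -0.02 and 0.07, and those of differently numbered ones at -0.12 to 0.06. With 3 libraries per group, such values cannot exclude pairing. With the replicate block, 33 members were higher and 5 lower, where 12.1% and 37.2% of all genes were, and Rps10 (adjusted p = 0.057), Rpsa (0.0945), Rps27a (0.0879), Rps4x (0.0837) and, outside the naming rule, Rps15 (0.0512), among others, lost their calls. Of the Diamond-Blackfan anaemia genes, 5 were then higher and 1 lower. TPM holds no read number, so how far depth limits the low rows of Rpl5, Rps2 and Rps27 is not known.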
